A study of Mus musculus with 4 samples.

Results

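The set described here holds 10 genes of fetal growth, Igf2, H19, Dlk1, Mest, Peg3, Plagl1, Cdkn1c, Grb10, Igf2bp3 and Hmga2, chosen by symbol because they are known to decline as growth slows after birth. The choice was made with earlier results of these data known. All 10 were found among the 24532 genes of the deposited expression table. RNA-seq had been run on knee cartilage of male C57BL/6 wild-type mice, with mice pooled into 1 library for each of 4 groups: sham and injured knees of young mice (3 weeks old), and the same pair from adults. The adult age is given as 12 weeks in the sample titles and as 14 weeks in another label, and the study's methods give a younger age still. The labels name the surgery as destabilization of the medial meniscus (DMM), while the methods describe a full-thickness defect of the trochlear cartilage, sampled 3 days later. The adult sham label spans days 3 to 14, while the other labels give day 3. The time after surgery may thus differ within the adult pair of libraries. It may also differ between the adult sham and young sham libraries, where it cannot be told apart from age. All mice shared the wild-type genotype, and sham surgery served as the control at each age. With 1 library in each group there is no replicate error, so no difference below carries a test, and each one compares pooled libraries rather than animals.

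Imprinted genes are read from only the copy inherited from the mother or only the copy inherited from the father. Many of them act on fetal growth, and paternally read genes such as Igf2 tend to promote it while maternally read genes such as Cdkn1c and Grb10 tend to restrain it. In mammals a network of these genes is strongly active before birth and in the young animal and is turned down in many organs as body growth slows. Igf2bp3 and Hmga2 are not imprinted but belong to a fetal programme that the let-7 microRNAs hold down in adult tissue. In young knee cartilage, growing epiphyseal and growth plate chondrocytes lie close to the future articular surface, and the zinc finger factor Plagl1 is known to activate Igf2, H19, Cdkn1c and other genes of the imprinted network.

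Expression is given as FPKM, sequenced fragments scaled to transcript length and to library depth, so levels can be compared between genes. Between libraries the scaling matters. The number of member ratios altered under other settings is given at the end, and some of them are named. Ratios are log2 ratios of FPKM + 1, and a gene is counted as higher or lower when that ratio reaches 2-fold. Adding 1 makes the ratio of a gene near or below 1 FPKM smaller than the plain fold. Of all genes, 18181 were above 0 in at least 1 library, and they are the background for each count. The library sums ran from 469939 to 533468 FPKM, and the 10 most abundant genes took 26.5% of the sum in adult sham cartilage against 14.7% to 17.5% in the other libraries. The labelled cell type is the chondrocyte, and Col2a1, Acan and Sox9 were all present in every library, with Col2a1, the main cartilage collagen, at 9349, 7903, 3173 and 3750 FPKM in sham then injured cartilage of young mice and sham then injured cartilage of adults. Every list of 4 values below follows that order of libraries.

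Promoter windows of the set are printed because most of its genes were lower together in adult cartilage. RefSeq windows of 300 bases (250 before to 50 after the start, build GRCm38.p6, the same build as mm10) were found for 8 of the 10 genes, 14 windows in all, with none for H19 or Cdkn1c. The CpG dinucleotide, where DNA methylation can mark the maternal or the paternal copy of an imprinted gene, occurred between 2 and 45 times in these windows, beside a median of 7 over 32851 windows of all genes. The capitals below mark each CpG in a window of Plagl1, the factor of the network, in the start of Igf2 that holds the most of them, and in a downstream start of Mest.
Plagl1, chr10:13090582-13090881, plus strand: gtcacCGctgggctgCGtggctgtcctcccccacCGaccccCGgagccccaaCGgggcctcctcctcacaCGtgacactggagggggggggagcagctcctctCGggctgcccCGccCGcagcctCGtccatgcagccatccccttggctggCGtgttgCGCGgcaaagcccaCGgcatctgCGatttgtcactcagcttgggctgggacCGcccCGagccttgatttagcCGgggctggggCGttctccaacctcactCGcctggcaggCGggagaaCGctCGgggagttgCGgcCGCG
Igf2, chr7:142658755-142659054, minus strand: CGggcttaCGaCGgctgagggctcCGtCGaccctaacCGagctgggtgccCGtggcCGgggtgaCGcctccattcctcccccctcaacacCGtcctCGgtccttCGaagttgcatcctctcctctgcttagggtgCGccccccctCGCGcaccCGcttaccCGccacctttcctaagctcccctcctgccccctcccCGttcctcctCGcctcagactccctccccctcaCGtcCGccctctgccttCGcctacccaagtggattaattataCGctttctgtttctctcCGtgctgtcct
Mest, chr6:30737800-30738099, plus strand: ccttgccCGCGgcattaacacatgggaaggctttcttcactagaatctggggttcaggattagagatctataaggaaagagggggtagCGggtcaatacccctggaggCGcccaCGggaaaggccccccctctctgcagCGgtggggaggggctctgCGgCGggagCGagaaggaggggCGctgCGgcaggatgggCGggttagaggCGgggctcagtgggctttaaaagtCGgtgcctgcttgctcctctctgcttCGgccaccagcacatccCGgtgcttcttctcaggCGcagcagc
These windows held 26, 24 and 17 CpG, and a smaller count was found in 83.1%, 80.0% and 68.6% of all windows. The other windows of Igf2 held 2, 7 and 14, and the most CpG of any member window were the 45 of a Grb10 start. The letters GGGGCCCC, which are the consensus known for Plagl1 and read the same on both strands, occurred in 1 of the 14 windows, at position 50 of the Peg3 window, and in 1.08% of all 32851. The capitals in the Peg3 window mark that match, which is a description of letters and not of a bound site.
Peg3, chr7:6730370-6730669, minus strand: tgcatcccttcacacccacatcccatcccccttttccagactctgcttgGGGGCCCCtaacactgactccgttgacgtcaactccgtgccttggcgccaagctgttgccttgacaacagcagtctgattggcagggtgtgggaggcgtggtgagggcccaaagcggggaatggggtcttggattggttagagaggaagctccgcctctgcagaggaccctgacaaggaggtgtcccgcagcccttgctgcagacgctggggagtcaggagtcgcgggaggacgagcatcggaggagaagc

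Summed over the set, the young libraries held 2553 FPKM (sham) and 2320 FPKM (injured), 0.519% and 0.435% of all FPKM. The adult libraries held 112.3 FPKM (sham) and 308.1 FPKM (injured), 0.0223% and 0.0656%. Both young libraries were thus above both adult libraries, and within the adult pair the injured library was the higher. H19 was the most abundant member in each of the 4 libraries, and made up 57.7%, 58.1%, 33.2% and 37.6% of the members' sum. Among all genes it ranked 44th in young sham cartilage and 1390th in adult sham cartilage, and Igf2 went from rank 245 to rank 5018 between the same libraries. In young sham cartilage 9 members reached 1 FPKM, against 7 in adult sham cartilage.

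**Figure D1:**
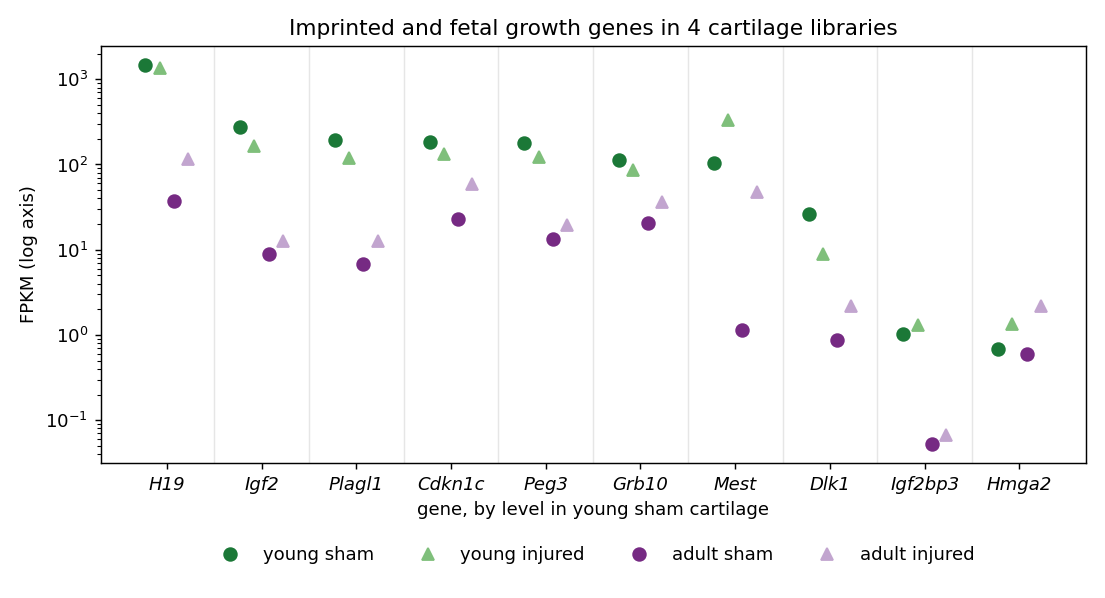
FPKM of each gene (y axis, log scale) in the 4 libraries, with genes in the order of their level in young sham cartilage (x axis); each point is 1 pooled library, circles are sham and triangles are injured. H19 ran from 1474 FPKM in young sham to 37.3 FPKM in adult sham cartilage, and Mest is the gene whose adult libraries lie farthest apart, at 1.14 and 48.0 FPKM.

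Adult cartilage held far less of this set than young cartilage. Of the 10 genes, 8 were at least 2-fold lower and 0 at least 2-fold higher in adult sham than in young sham cartilage, where 10.6% of all genes were lower and 2.66% were higher. The members' median log2 ratio was -3.76, against -0.15 over all genes. The members were chosen for a decline with age, with earlier results known, so these values describe the set and do not test a decline. In the injured libraries, which share no library with the sham pair, 9 members were lower and 0 were higher in the adult, against 3.09% and 1.8% of all genes, with a median of -2.12 against -0.04. Scaling by the median of ratios set the all-gene sham median to 0.00 and left the members' sham median at -3.45. Relative to the median ratio of the chondrocyte genes listed below, the members' sham median was -2.17. Igf2bp3 lay closest to the 2-fold limit, just outside it in the sham pair (-0.95) and just inside it in the injured pair (-1.11), and the nearest member inside it in the sham pair was Grb10 at -2.43.

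**Figure D2:**
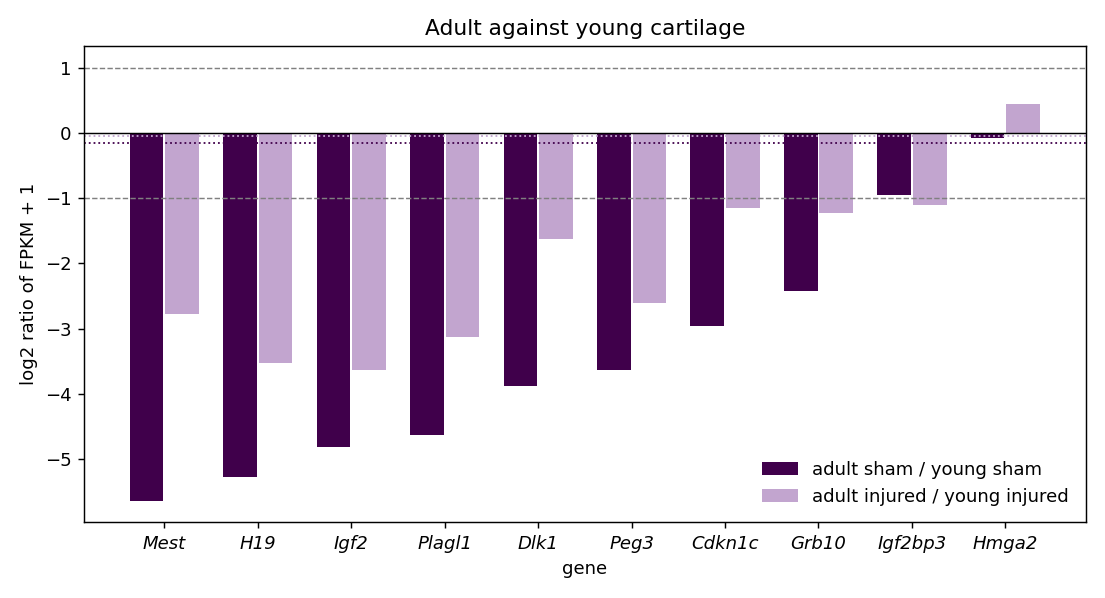
Log2 ratio of FPKM + 1 (y axis) for adult over young cartilage, in sham (dark) and injured (light) libraries, 1 library a group; dashed lines mark 2-fold, dotted lines the all-gene medians of -0.15 and -0.04. From Mest to Igf2bp3 both bars point down for 9 genes, and only Hmga2 has a bar above 0, at 0.44 in the injured pair.

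Igf2 encodes the insulin-like growth factor that drives fetal growth through the IGF1 receptor. It stood at 275.5, 165.7, 8.80 and 12.5 FPKM. Both young libraries were above both adult libraries, and the adult level was 31.3-fold lower in sham and 13.2-fold lower in injured cartilage (log2 ratios of -4.82 and -3.63). The gene lies at chr7:142650768-142666816, and 61.9% of its 31-base words also occur in some other gene of the GENCODE annotation, with Gm49394 and Slc1a2 sharing the most. Its level is uncertain to the extent that reads were divided between them. Whether the annotation behind the deposited values held these genes was not examined. H19, at chr7:142575530-142578146, is a noncoding RNA that lies beside Igf2 and is read from the maternal copy, the opposite of Igf2. It had 1474, 1349, 37.3 and 115.9 FPKM, and was 39.5-fold lower in adult sham and 11.6-fold lower in adult injured cartilage (log2 ratios of -5.27 and -3.53). The FPKM of H19 divided by that of Igf2 was 5.35, 8.14, 4.24 and 9.26. That quotient was larger in the injured than in the sham library at each age, and it carries the uncertainty of the Igf2 level. Ins2, the insulin gene on the far side of Igf2, was at most 0.067 FPKM.

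Dlk1 encodes a transmembrane protein of the Notch ligand type that keeps precursor cells from differentiating. It was read at 26.5, 8.79, 0.87 and 2.18 FPKM, 30.5-fold lower in adult than in young sham cartilage and 4.03-fold lower in the injured pair (log2 ratios of -3.88 and -1.62). Here the young libraries also differed, with the injured one at 33.2% of the sham level. Meg3 and Rian are noncoding RNAs from the maternal copy of the same locus on chromosome 12. Meg3 had 731.0, 704.6, 311.4 and 233.9 FPKM, and Rian had 430.0, 419.7, 142.3 and 94.9 FPKM. Their age log2 ratios were -1.23 and -1.59 in the sham pair, smaller in size than that of Dlk1, but -1.59 and -2.13 in the injured pair, where that of Dlk1 was -1.62. The FPKM of Meg3 divided by that of Dlk1 was 27.6, 80.1, 358.0 and 107.2. The retrotransposon-derived Rtl1 of that locus was at most 0.022 FPKM.

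Mest, also called Peg1, encodes an alpha/beta hydrolase-like protein and is read from the paternal copy at chr6:30733506-30748466. Its values were 105.0, 333.7, 1.14 and 48.0 FPKM. In sham cartilage it was 92.4-fold lower in the adult (log2 ratio of -5.63), and 5 of the 18181 genes had a lower ratio. In injured cartilage the difference with age was 6.96-fold (-2.77). Copg2, a coat protein gene whose 3' end overlaps that of Mest on the other strand, had 12.6, 13.2, 11.6 and 13.0 FPKM and so differed little between any of the libraries. Klf14, farther along, was below 0.4 FPKM throughout.

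Peg3, a large zinc finger protein gene at chr7:6703892-6730462 whose promoter window is printed above, had 178.9, 123.8, 13.5 and 19.4 FPKM. It was 13.3-fold lower in adult sham and 6.37-fold lower in adult injured cartilage (log2 ratios of -3.64 and -2.61). Its neighbour Zim1, a zinc finger gene read from the maternal copy, stood at 52.2, 35.3, 0.48 and 1.06 FPKM, with log2 ratios of -5.16 and -4.14. Usp29, which starts near Peg3 on the other strand, had 0.63, 0.40, 0.0043 and 0.036 FPKM. At this locus the paternally read Peg3 and the maternally read Zim1 were both lower in adult cartilage, as Igf2 and H19 were at theirs. Usp29 was also lower in both adult libraries. It was under 1 FPKM throughout, so its log2 ratios of FPKM + 1 (-0.70 and -0.44) are much smaller than the plain fold.

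Plagl1, also called Zac1, lies at chr10:13090832-13131694 and had 192.4, 118.4, 6.81 and 12.7 FPKM. The adult level was 28.3-fold lower in sham and 9.36-fold lower in injured cartilage (log2 ratios of -4.63 and -3.13). Both adult libraries were under both young ones, as for each of the 8 imprinted members and Igf2bp3. Its overlapping noncoding partner Hymai was at most 0.70 FPKM, listed at 0.70, 0.52, 0.013 and 0.054 FPKM.

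Cdkn1c and Grb10, both known to restrain growth, were lower in the adult too. Cdkn1c encodes p57, an inhibitor of cyclin-dependent kinases that takes growth plate chondrocytes out of the cell cycle, and had 185.2, 132.8, 22.8 and 59.2 FPKM. It was 8.11-fold lower in adult sham and 2.24-fold lower in adult injured cartilage (log2 ratios of -2.97 and -1.15). The injured ratio of Cdkn1c fell short of 2-fold with quantile normalization (-0.97) and after bringing all libraries to the same FPKM sum. Grb10 encodes an adaptor that dampens signalling from the insulin and IGF1 receptors and had 114.2, 85.3, 20.4 and 36.0 FPKM, a 5.58-fold and a 2.37-fold lower level (-2.43 and -1.22). Relative to the median ratio of the chondrocyte genes listed below, both Grb10 ratios fell short of 2-fold (-0.83 in sham), as did the injured ratio of Cdkn1c. Of the 8 imprinted members these 2 had the smallest sham ratios, and in adult sham cartilage they were the most abundant after H19. Around Cdkn1c on chromosome 7, the noncoding Kcnq1ot1 had 1.04, 0.64, 0.12 and 0.37 FPKM. Phlda2, a placental growth restrainer, had 0.67 and 1.13 FPKM in the young libraries, was listed at 0 in adult sham and had 4.28 FPKM in adult injured cartilage. The transporter gene Slc22a18 stayed between 0.90 and 1.91 FPKM. Around Grb10, Ddc went from 0.96 FPKM in young sham to a listed 0 in adult sham, and Cobl from 2.67 to 1.42 FPKM.

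**Figure D3:**
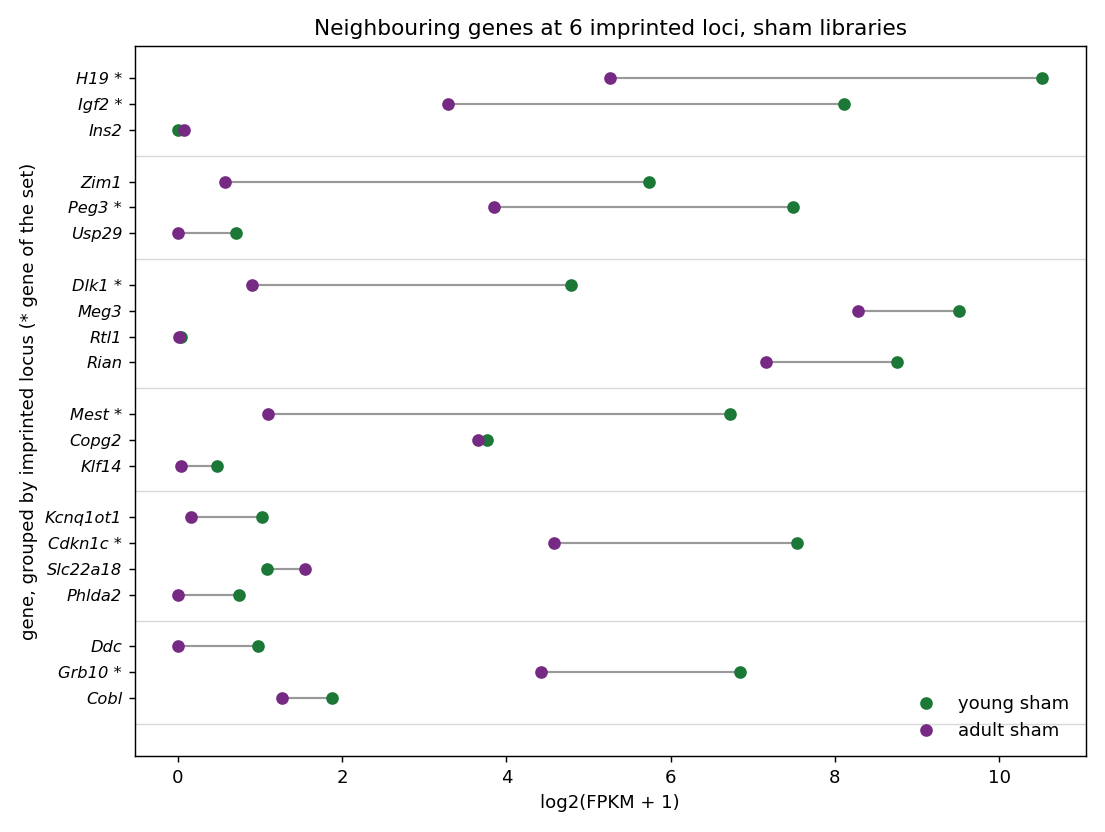
Level as log2(FPKM + 1) (x axis) of the imprinted members, marked with an asterisk, and their neighbours at 6 loci, in the order of their start on the chromosome; green points are the young sham and purple points the adult sham library, 1 library each. Long lines to the left mark H19, Igf2, Zim1, Peg3, Dlk1, Mest and Cdkn1c, whereas Copg2 stayed near 12 FPKM and Meg3 and Rian kept 311.4 and 142.3 FPKM in the adult.

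The fetal programme genes that are not imprinted behaved differently from one another. Igf2bp3 encodes an RNA-binding protein that binds the Igf2 message, and had 1.04, 1.3, 0.052 and 0.068 FPKM. In plain FPKM the young value was 19.9 times the adult one in sham and 19.2 times in injured cartilage, though the log2 ratios of FPKM + 1 are only -0.95 and -1.11 at this low level. If the smallest step of the FPKM scale is 1 fragment, these values stand for about 119, 149, 7.05 and 7.59 fragments. Hmga2, a chromatin protein gene of growing mesenchyme, had 0.68, 1.35, 0.60 and 2.2 FPKM and did not follow the others with age. Its sham log2 ratio of -0.07 turned to 0.08 under median-of-ratios scaling, to 0.17 under quantile normalization and to 1.52 relative to the chondrocyte genes, so no direction can be given for it in sham cartilage. The paralogs differed as well. Igf2bp2 had 6.71, 4.96, 0.85 and 2.33 FPKM (sham log2 ratio of -2.06), Igf2bp1 was at most 0.036 FPKM, and Hmga1 was higher in the adult, with 1.22, 1.36, 3.69 and 3.76 FPKM (1.08).

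Igf2bp3 and Hmga2 are known targets of let-7, and their sites are printed because this is the feature that sets them apart from most of the imprinted members. The capitals in let-7a, the founding member of the family, mark the seed at bases 2 to 8, shared by 11 mature names in RefSeq, and the capitals in the messages mark CTACCTC, the letters that pair with it.
let-7a-5p: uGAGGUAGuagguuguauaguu
Igf2bp3, base 548 of a 3' end of 2119: gcatttttactcaaCTACCTCagg
Hmga2, base 58 of a 3' end of 3014: ccgacattcaatttCTACCTCagc
Hmga2, base 1295: cccactcctcaataCTACCTCtga
Hmga2, base 1733: tgatttgcaaggaaCTACCTCcac
Hmga2, base 2591: atcaaaacacactaCTACCTCtta
Of 20971 genes with such a region, 8.78% held at least 1 copy and 12 genes (0.0572%) held at least 4, Hmga2 and Igf2bp1 among them. Peg3 held 1 copy, and Igf2, Dlk1, Mest, Plagl1, Cdkn1c and Grb10 held 0. These libraries were made from polyadenylated RNA and did not measure mature microRNAs. Of the genes known for the let-7 switch, Lin28a was between 0.10 and 0.33 FPKM and Lin28b was listed at 0 in each library.

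The other imprinted genes give the range of imprinted genes not chosen for a decline with age, as the members were. Their medians are therefore not matched to that of the members, and the difference was not tested. Of 24 further paternally read genes, 4 were at least 2-fold lower and 1 was higher in adult sham cartilage, with a median log2 ratio of -0.41, and in the injured pair 2 were lower and 1 higher (-0.17). Sgce and Ndn had the highest means over the 4 libraries, with 44.8 and 57.6 FPKM in young sham and 41.9 and 29.1 FPKM in adult sham cartilage. At least 2-fold lower in both age comparisons were the noncoding Airn (34.6 and 13.8 FPKM in the sham libraries) and Magel2 (1.27 FPKM in young sham and listed at 0 in adult sham). Snurf was higher in both, at 1.72 and 6.73 FPKM, but it shares a transcript with Snrpn, so the division of reads between them is uncertain. Of 26 further maternally read genes, 7 were lower and 0 were higher in adult sham cartilage, with a median of -0.07, and in the injured pair 5 were lower and 1 higher (-0.23). Besides Meg3, Rian and Zim1, the gene lower in both age comparisons was Asb4, which had 6.70 and 0.52 FPKM in the sham libraries. Cd81, a membrane protein gene, stood at 212.3 and 292.0 FPKM.

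Of 19 other genes of the fetal programme above 0, 4 were lower and 1 was higher in adult sham cartilage (median of -0.29), and in the injured pair 1 was lower and 1 higher (0.05). Gpc3, the gene of a glypican that restrains fetal growth, had 12.5, 5.84, 0.89 and 0.63 FPKM and was lower in both age comparisons. Smoc1, E2f5 and E2f6 had the highest means of that list over the 4 libraries and stayed within 2-fold in both. Of 19 genes of the IGF pathway above 0, 4 were lower and 2 higher in adult sham cartilage (-0.56), and 2 were lower and 3 higher in the injured pair (0.00). Igf1, the postnatal counterpart of Igf2, had 6.95, 8.96, 0.30 and 3.37 FPKM, and Irs1, a docking protein below the receptor, had 17.7, 13.5, 5.20 and 5.32 FPKM. In the other direction were Igfbp6, a binding protein with a preference for IGF2, with 5.01, 8.92, 23.4 and 30.5 FPKM, and the protease gene Htra1, with 92.5 FPKM in young sham and 284.1 FPKM in adult sham. Igfbp7 had the highest mean of that list and stood at 1264 and 1279 FPKM in the sham libraries, while Igfbp5 had 90.5 and 61.3 FPKM. Among the 6 other inhibitors of cyclin-dependent kinases, 2 were lower and 1 was higher in adult sham cartilage (-0.50), and 0 were lower or higher in the injured pair (0.05).

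**Figure D4:**
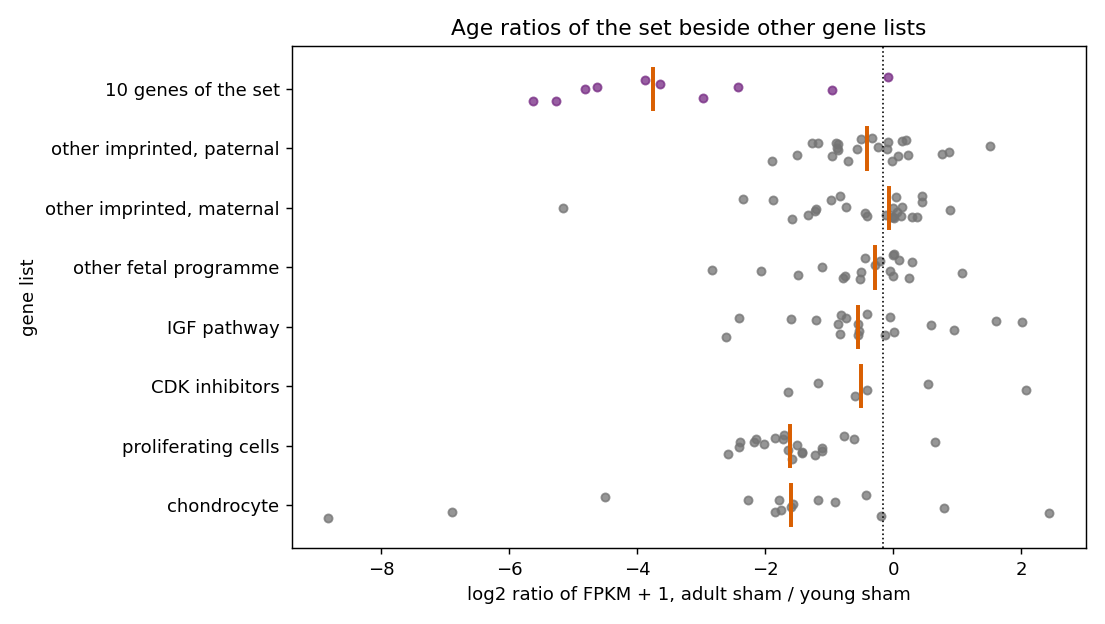
Log2 ratio of FPKM + 1, adult sham over young sham (x axis), for each gene of 8 lists (y axis; points are spread vertically only to keep them apart); the orange bar is the list's median and the dotted line the all-gene median of -0.15. The set was chosen for a decline with age. Its median of -3.76 lies to the left of the medians of the proliferating (-1.62) and chondrocyte (-1.59) lists and of the other imprinted genes (-0.41 and -0.07).

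Markers of the tissue itself also differed with age. Of 15 chondrocyte genes, 10 were at least 2-fold lower and 1 was higher in adult sham cartilage, with a median of -1.59, against 6 lower and 2 higher in the injured pair (-0.74), and the list summed to 26053, 22393, 19644 and 16882 FPKM. Matn1 and Matn3, matrilins of growing cartilage, had lower ratios than any member, with sham log2 ratios of -8.83 and -6.90. Comp was the chondrocyte gene counted as higher in the sham pair (2.44). Comp (1.22) and Prg4 (2.65) were those counted as higher in the injured pair. The sham ratio of Prg4 was also above 0 but short of 2-fold (0.80). Of 20 genes of proliferating cells, 17 were lower and 0 were higher in adult sham cartilage (-1.62), and 13 and 0 in the injured pair (-1.26), with sums of 281.3, 497.3, 125.3 and 207.6 FPKM. Pcna, Mcm6 and Top2a had its highest means over the 4 libraries, and 13 of the 20, among them Mki67 and Top2a, were lower in both age comparisons. In bulk tissue, fewer cells that express a gene and less of its RNA per cell cannot be told apart. The osteoblast list summed to 880.9, 1599, 6045 and 6567 FPKM, and 8 of its 12 genes were higher in adult sham cartilage and 7 in adult injured cartilage. The skeletal muscle list summed to 1091, 874.6, 2088 and 578.1 FPKM, and 8 of 15 were higher in adult sham, against 1 higher and 1 lower in the injured pair. The 10 genes of muscle stem cells and myoblasts summed to at most 2.0 FPKM, and Pax7 and Myod1 were listed at 0 in both sham libraries. Adipocyte genes summed to between 81.6 and 103.0 FPKM. Relative to the chondrocyte genes, a comparison chosen after the values were seen, the members' median was -2.17 in the sham and -1.38 in the injured pair, with 7 and 5 members lower and 1 (Hmga2) higher in each. The erythroid list also moved with age: 7 of its 9 genes were lower and 1 (Hbb-bs) was higher in adult sham cartilage (median of -1.42), all 9 were lower in the injured pair (-2.86), and the sums were 9682, 18448, 6957 and 3033 FPKM. Of 12 macrophage genes, 6 were higher and 1 was lower in adult sham cartilage (0.94), and 0 and 1 in the injured pair (-0.27). Of 12 fibroblast genes, 3 were higher and 1 was lower in adult sham cartilage (0.48), and 1 and 0 in the injured pair (0.15). Of 10 neutrophil genes, 0 were lower and 1 was higher in each age comparison, and of 10 endothelial genes 0 were in either. The part of these cell types in the members' ratios was not tested.

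Over 8055 genes with a mean of 5 FPKM or more, the patterns over the 4 libraries nearest to the mean of the set, by Euclidean distance of centred log2 values, were those of Ppp1r3b, Nid2, Kctd4, Aldh1l2 and Cpxm2 (0.34 to 0.61). Those nearest to Igf2 were A2m, Zim1, Il17b, Srpx and C430049B03Rik (0.12 to 0.65). A2m, the protease inhibitor alpha-2-macroglobulin, had 51.7, 27.9, 0.90 and 1.52 FPKM and lay closest, and Zim1 is itself imprinted. With 4 points a pattern of this kind is weak as a measure of likeness.

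After injury the members' ratios were mostly smaller in size than their age ratios, with Mest as the widest. The injury comparisons share their sham libraries with the sham age comparison, so the values are given side by side only. In young cartilage 1 member, Dlk1, was at least 2-fold lower and 1, Mest, was at least 2-fold higher after injury, against 1.27% and 4.57% of all genes, and the members' median log2 ratio was -0.45 against 0.00. In adult cartilage 0 members were lower and 4 (H19, Mest, Cdkn1c and Hmga2) were higher, against 1.46% and 6.9% of all genes, with a median of 0.80 against 0.14. Hmga2 lay on the limit at 1.00, and Plagl1 at 0.81 was the nearest below it. Of these 4, 1 no longer passed with median-of-ratios scaling, with quantile normalization or with a pseudocount of 5. With a pseudocount of 0.1, or after bringing all libraries to the same FPKM sum, 1 further member passed.

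**Figure D5:**
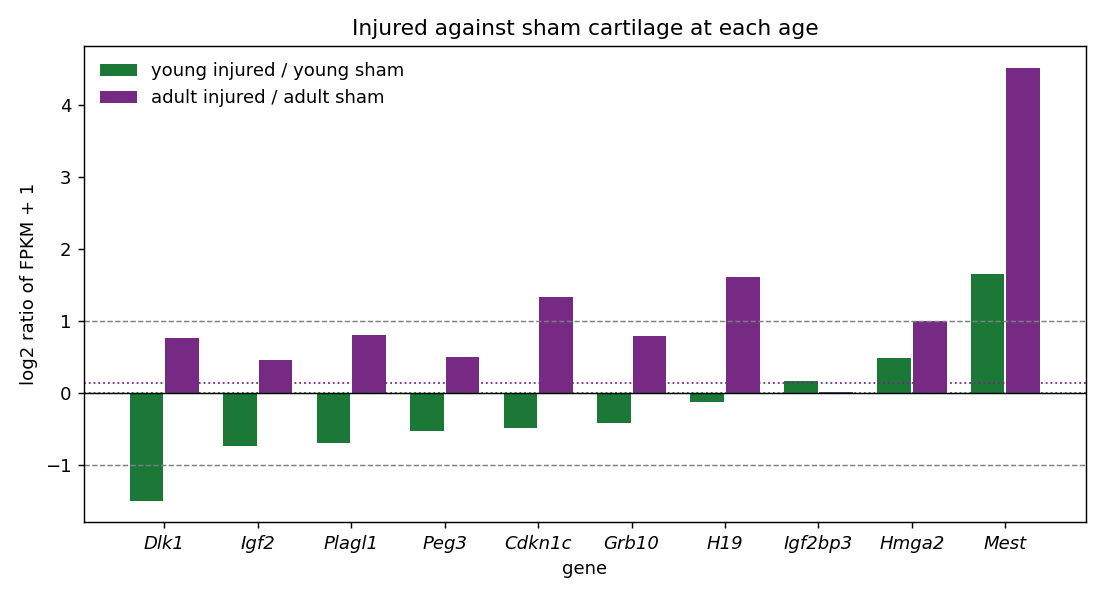
Log2 ratio of FPKM + 1 (y axis) for injured over sham cartilage, young in green and adult in purple, 1 library a group; dashed lines mark 2-fold and dotted lines the all-gene medians of 0.00 and 0.14. From Dlk1 to H19 the green bars point down and the purple bars up, and Mest has the tallest bars at both ages, 1.66 and 4.52.

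Mest was higher after injury at both ages. It was 3.18-fold higher in young cartilage (105.0 to 333.7 FPKM) and 42.2-fold higher in adult cartilage (1.14 to 48.0 FPKM), with log2 ratios of 1.66 and 4.52. Among all genes the adult ratio ranked 15th and the young ratio 341st from the top. Adult injured cartilage thus held 45.7% of the young sham level of Mest, while no other imprinted member exceeded 32.0% (Cdkn1c) and Igf2 was at 4.54%. Copg2, which overlaps it, had injury log2 ratios of 0.06 and 0.16. The values of other cell types moved in the same libraries: the macrophage list summed to 203.8, 1914, 329.7 and 1657 FPKM, the fibroblast list to 2090, 5337, 4381 and 8252 FPKM, the endothelial list to 23.1, 106.4, 26.7 and 89.5 FPKM, and the proliferating list as given above. At least 2-fold higher after injury were 10 of 12 macrophage genes at each age, 5 of 12 fibroblast genes at each age and 8 of 10 endothelial genes at each age, while 3 fibroblast genes (Dpt, Clec3b and Gsn) were at least 2-fold lower after adult injury. Neutrophil genes summed to 1231, 2506, 1622 and 1959 FPKM, with 3 and 1 of 10 at least 2-fold higher after young and adult injury. Erythroid genes had medians of 0.73 after young injury, with 1 of 9 higher, and -0.35 after adult injury, with 3 of 9 lower. The part of these lists in the members' values after injury was not tested.

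Igf2, H19, Dlk1, Peg3, Plagl1, Cdkn1c and Grb10 each lay below the sham value in the injured young library and above it in the injured adult library. The same combination was found in 29.6% of all 18181 genes, and in 34.2% of the 8055 with a mean of 5 FPKM or more. Dlk1 had the widest spread, with 26.5 against 8.79 FPKM in young and 0.87 against 2.18 FPKM in adult cartilage (-1.49 and 0.77). H19 was nearly level in young cartilage at 1474 and 1349 FPKM (-0.13), and was 3.11-fold higher in adult injured cartilage (1.61). Relative to the chondrocyte genes the young H19 ratio turned to 0.15, so its young direction depends on the scaling, and the adult ratios of Igf2 and Peg3 came to 0.023 and 0.061. Cdkn1c was 2.59-fold higher after injury in the adult (1.34), and for Igf2, Peg3, Plagl1 and Grb10 the adult ratios lay between 0.46 and 0.81. The chondrocyte list had a median of -0.28 after young injury, with 2 of 15 genes at least 2-fold lower, and of 0.44 after adult injury, with 5 at least 2-fold higher and 5 below 0, while its sum was lower in the injured library at both ages. Of 15 skeletal muscle genes, 12 were lower in the injured than in the sham library of adults. What part these differences have in the adult injury values was not tested. Hmga2 after injury had log2 ratios of 0.49 in young cartilage, short of 2-fold, and 1.00 in adult cartilage, and those of Igf2bp3 were 0.17 and 0.02.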

How the data were processed

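Polyadenylated RNA of pooled mouse knee cartilage was sequenced as strand-marked paired ends, 1 library for each of 4 groups. The deposited values are FPKM per gene, made by the authors against mm10. The submitters' processing notes name HISAT2 2.1.0, StringTie 1.3.4d, STAR and SAMtools, and whether counting used the strand is not given in the sources used here. No counts were used, and depth is known only from the FPKM steps, about 25800000 to 31100000 fragments per library if 1 step is 1 fragment. Groups were taken from the sample labels. Log2 ratios of FPKM + 1 were computed for 4 comparisons over 18181 genes above 0 in at least 1 library, with Python 3.11.15, numpy 2.4.6 and pandas 2.3.3. No p-value is given. The members, gene lists and comparisons were chosen with earlier results of these data known. Named were all members, their neighbours and paralogs, the 3 genes of each list with the highest mean over the 4 libraries with those past 2-fold in both age comparisons, and the 5 nearest patterns, given only in part for the IGF, proliferation and cell marker lists. Other pseudocounts, filters, scalings and thresholds were tried. Older symbols were matched by gene ID.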

Additional observations from a re-analysis of the deposited data

Results flagged for a closer look

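For 7 members the injured library lay below the sham library in young cartilage and above it in adult cartilage. The log2 ratios of FPKM + 1 in young and adult cartilage were -0.73 and 0.46 for Igf2, -0.13 and 1.61 for H19, -1.49 and 0.77 for Dlk1, and -0.53 and 0.50 for Peg3. They were -0.70 and 0.81 for Plagl1, -0.48 and 1.34 for Cdkn1c, and -0.42 and 0.79 for Grb10. These are single pooled libraries, so the difference between the ages was not tested. The median of all genes was 0.00 in young and 0.14 in adult cartilage, and that of the chondrocyte genes was -0.28 and 0.44. The combination of a ratio below 0 in young and above 0 in adult cartilage was found in 29.6% of all genes, and in 34.2% of those with a mean of 5 FPKM or more. Only the young H19 ratio changed direction among these 14 values under the scalings tried, to 0.15 relative to the chondrocyte genes, a setting that also brought the adult ratios of Igf2 and Peg3 to 0.023 and 0.061.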

How the results depend on the processing

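No paired analysis was possible because each group had 1 library, and for the same reason no library could be left out. Of 240 member ratios recomputed under alternatives that could alter them, 213 kept their direction and side of the 2-fold limit, 15 no longer passed it, 5 newly passed it and 7 reversed. In adult sham against young sham, Hmga2 reversed to 0.079 (median-of-ratios scaling), 0.17 (quantile normalization) and 1.52 (relative to the chondrocyte genes), and Igf2bp3 to 0.64 (relative to the chondrocyte genes). Igf2bp3 after adult injury reversed to -0.042 (quantile normalization) and -0.42 (relative to the chondrocyte genes), and H19 after young injury to 0.15 (relative to the chondrocyte genes). In the injured age pair, where 9 members were lower, Cdkn1c no longer passed after bringing all libraries to 1 FPKM sum (-0.98) or with quantile normalization (-0.97), Igf2bp3 with quantile normalization (-0.95) or a pseudocount of 5 (-0.31), and Dlk1 with that pseudocount (-0.94). Relative to the chondrocyte genes, a setting chosen after seeing the data, 1 member became higher in each age comparison, 5 instead of 9 were lower in the injured pair, and 2 instead of 4 were higher after adult injury. At 1.5-fold and 3-fold thresholds, 3 and 0 members were lower after young injury, and 7 and 2 were higher after adult injury. With a pseudocount of 0.1 the median after adult injury was 1.06, past the 2-fold limit. Over all genes, 1934 were lower and 484 higher in adult sham cartilage as deposited, 1009 and 972 with median-of-ratios scaling, 959 and 916 with quantile normalization, and 2707 and 609 after bringing all libraries to 1 FPKM sum. With pseudocounts of 0.1 and 5 the lower count was 3840 and 670. In the injured pair 561 lower and 328 higher became 619 and 625 with 1 FPKM sum. After adult injury 266 lower and 1255 higher became 455 and 866 with median-of-ratios scaling and 489 and 725 with quantile normalization. Levels were lowest for Igf2bp3 and Hmga2, and in adult cartilage also for Dlk1. Without replicates no ratio near the 2-fold limit can be told from library spread.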
